A study of Mus musculus with 144 samples.

Results

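Single retinal microglia that clearly expressed both Tnf and Il1a were compared with those that had little or none of either. Tnf encodes tumour necrosis factor and Il1a encodes interleukin 1 alpha. A cell was kept when at least 1000 genes reached an FPKM of 1, where FPKM is a gene's share of the cell's assigned reads, divided by the gene's length. A kept cell was double-positive when both genes were at an FPKM of 10 or more and double-negative when both were under 1. The cells were thus chosen by their Tnf and Il1a FPKM, so levels of these genes are given only as a description. Of 144 cells, 140 were kept, 42 were double-positive, 27 were double-negative and 71 were neither.

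All cells came from the retina of Iba1-EGFP mice, in which cells that express Iba1 carry a green fluorescent protein, and were sorted one by one by flow cytometry. The groups were PBS (mice of 10 to 14 weeks), ripasudil at 1 mg/kg, here called Low (14 weeks), and ripasudil at 10 mg/kg, here called High (12 weeks), with 48 cells each on 3 plates. Ripasudil inhibits the kinases ROCK1 and ROCK2. The study concerned GPR84, TNF and IL-1 alpha in microglia after damage to the optic nerve, but the labels did not state whether these eyes were injured, and they named no animal. Each group was therefore 1 sample, cells were not replicates, and no test across cells was made. Iba1 is also made by other macrophages, so the sort alone did not select microglia, and dose, age and well position cannot be told apart in these groups.

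TNF and IL-1 alpha are cytokines that microglia release during inflammation. In the retina and brain, microglia that release them with the complement protein C1q are known to push astrocytes into a reactive state. Transcription of many cytokine genes is driven by NF-kB, a factor held in the cytoplasm by inhibitors such as the product of Nfkbia, and by AP-1, a dimer of Fos and Jun family proteins. NF-kB also switches on its own inhibitors, and proteins that bind AU-rich stretches, such as the product of Zfp36, speed the decay of cytokine mRNAs. Immediate early genes are those that cells transcribe within minutes of a stimulus, before new protein is made.

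The sequences just upstream of the genes that defined the classes, and of Ier3 and Nfkbia, 2 NF-kB target genes described below, show where motifs of these factors lay. Each is the 250 bases before the annotated start, 5' to 3' along the gene, from RefSeq on GRCm38.p6. The Tnf stretch is chr17:35202008-35202257 on the minus strand, that of Il1a is chr2:129309973-129310222 on the minus strand, that of Ier3 is chr17:35821463-35821712 on the plus strand and that of Nfkbia is chr12:55492648-55492897 on the minus strand. Capitals mark an AP-1 motif in Il1a, at position -12 from the start, and kappaB motifs in Ier3 and Nfkbia, at positions -92 and -29.
Tnf: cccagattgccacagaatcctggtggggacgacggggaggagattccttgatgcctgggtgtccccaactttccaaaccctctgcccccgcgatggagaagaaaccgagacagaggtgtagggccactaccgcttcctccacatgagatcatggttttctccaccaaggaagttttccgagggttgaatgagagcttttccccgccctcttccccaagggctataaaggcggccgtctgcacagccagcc
Il1a: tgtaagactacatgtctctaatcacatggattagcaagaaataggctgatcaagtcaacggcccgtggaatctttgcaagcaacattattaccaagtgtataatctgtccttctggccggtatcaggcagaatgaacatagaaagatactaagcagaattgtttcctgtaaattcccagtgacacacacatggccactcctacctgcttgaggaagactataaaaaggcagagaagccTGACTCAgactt
Ier3: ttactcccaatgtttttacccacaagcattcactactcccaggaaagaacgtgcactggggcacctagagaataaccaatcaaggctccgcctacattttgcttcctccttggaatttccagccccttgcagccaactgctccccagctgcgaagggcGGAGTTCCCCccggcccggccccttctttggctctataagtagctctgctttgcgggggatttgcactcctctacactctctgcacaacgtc
Nfkbia: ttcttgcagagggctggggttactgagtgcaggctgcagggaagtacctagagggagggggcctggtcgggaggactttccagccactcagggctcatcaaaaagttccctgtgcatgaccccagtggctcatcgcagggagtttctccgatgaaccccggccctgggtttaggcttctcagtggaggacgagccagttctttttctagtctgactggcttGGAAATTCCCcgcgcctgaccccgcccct

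The motifs searched on both strands were the kappaB motif, AP-1 (TGANTCA), the cAMP response element (TGACGTCA) and the CArG box of serum response factor. They lay in 7.25%, 6.75%, 1.55% and 1.47% of 32841 such stretches. The Tnf stretch held none of them. Among the 12 genes that were highest in double-positive cells, 9 had a stretch in the table. The kappaB motif lay in that of Ier3 alone, the cAMP response element lay in those of Btg2 and Ppp1r15a, and the other 2 motifs lay in none. Of the 12 genes that were lowest, 11 had a stretch. The cAMP response element lay in those of 2, Ndufa11 and Tmem147, and the other motifs lay in none, so this element was found on both sides. A match is a run of letters and not a site shown to be bound.

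Double-positive cells made up 18 of 46 kept PBS cells (39.1%, exact 95% interval 25.1 to 54.6%), 15 of 47 Low cells (31.9%, 19.1 to 47.1%) and 9 of 47 High cells (19.1%, 9.15 to 33.3%). Double-negative cells made up 5 PBS cells (10.9%, 3.62 to 23.6%), 13 Low cells (27.7%, 15.6 to 42.6%) and 9 High cells (19.1%, with the interval of the double-positive High cells). The intervals cover counting of cells only and overlap between the groups for both classes. The 3 plates held 5, 7 and 6 double-positive PBS cells, 4, 7 and 4 Low cells and 1, 5 and 3 High cells. Double-negative cells numbered 2, 1 and 2 in PBS, 4, 4 and 5 in Low, and 5, 1 and 3 in High.

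High Tnf without high Il1a was rare. Of 46 cells with Tnf at an FPKM of 10 or more, 42 also had Il1a at that level, 2 had Il1a between 1 and 10, and 2 had it under 1. Il1a at 10 or more was found in 18 further cells, 12 with Tnf between 1 and 10 and 6 with Tnf under 1. In double-positive cells Tnf ranged from 10.8 to 2112 FPKM (median 306) and Il1a from 13.5 to 5153 (median 387), and in double-negative cells they reached at most 0.887 and 0.965. Near the thresholds, the lowest Tnf level above 10 was 10.8 and the highest below it 8.0, and the values around 1 were 1.02 and 0.980. For Il1a they were 11 and 8.65 around 10, and 1.01 and 0.965 around 1. Il1a overlaps the antisense gene Gm14023 and the use of strand was not stated, so reads there are of uncertain origin, and Gm14023 itself had an adjusted difference of 4.46.

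**Figure D1:**
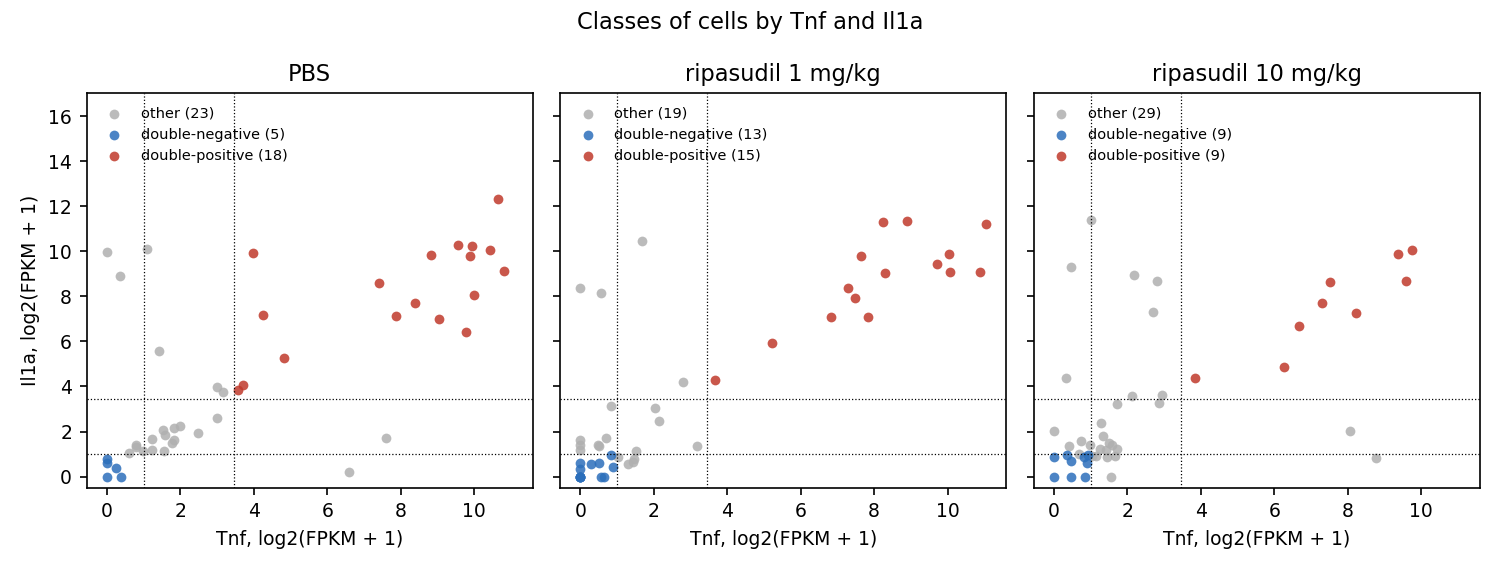
Tnf (horizontal) and Il1a (vertical) per kept cell as log2(FPKM + 1), in the PBS, Low and High groups, with dotted lines at FPKM 1 and 10. Each point is a cell, and the classes hold 18, 15 and 9 double-positive and 5, 13 and 9 double-negative cells. Few cells lie at high Tnf and low Il1a.

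The classes differed in how many genes a cell yielded. Double-positive cells had a median of 4969 detected genes (FPKM of 1 or more) in PBS, 4656 in Low and 4721 in High, over ranges of 2091 to 9077, 1595 to 7643 and 2764 to 6149. Double-negative cells had medians of 2210, 1659 and 2353, over ranges of 1144 to 3295, 1238 to 2805 and 1006 to 3860. Assigned reads were also higher in median, at 2432050 against 1959470 in PBS, 3008140 against 2042470 in Low and 2379540 against 1524460 in High, but their ranges overlapped widely. Assigned reads were 34021 to 4141288 in double-positive and 958989 to 3390040 in double-negative PBS cells, 50760 to 4274637 and 541193 to 4668733 in Low cells, and 30204 to 4296242 and 631799 to 4387339 in High cells. The 7 cells under 300000 reads were all double-positive, 4 in PBS, 1 in Low and 2 in High. FPKM is a share of reads, so in such cells a single read raises a gene's FPKM far more. They can thus pass the thresholds for class and for detected genes on very few reads. The PBS cell with 34021 reads was double-positive with Tnf at 17.9 FPKM. How far depth set the class of these cells was not tested.

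**Figure D2:**
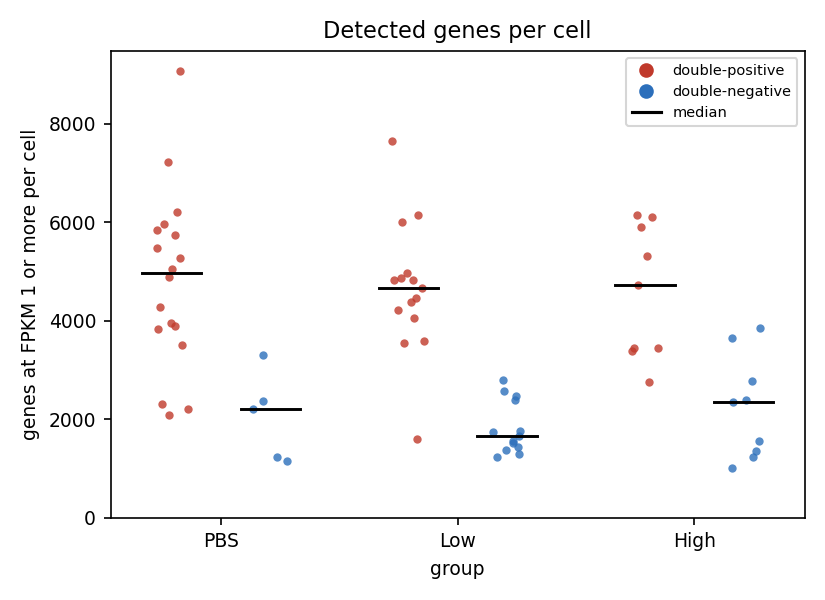
Detected genes per cell (vertical, genes at FPKM 1 or more) in double-positive and double-negative cells of each group. Points are cells and lines are medians, which are 4969, 4656 and 4721 for double-positive and 2210, 1659 and 2353 for double-negative cells. The ranges of the classes overlap little, and in Low only 1 double-positive cell lies within the double-negative range.

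For that reason each gene was described by an adjusted difference, the double-positive minus double-negative difference in mean log2(FPKM + 1) at equal log2 detected genes, fitted within each group over all its kept cells. The mean of the 3 groups is given with its SD over groups, which is a spread between 3 fits and not an error over animals. The unadjusted difference is given beside it. A further comparison used only cells within the range of detected genes that both classes share, which left 3 double-positive and 3 double-negative cells in PBS, 1 and 7 in Low, and 4 and 3 in High. The Low value of that comparison rests on 1 double-positive cell. The number of detected genes may itself belong to the state of these cells or to the making of their libraries, and these cannot be told apart. Fewer RNA molecules per cell and poorer capture of the same RNA cannot be told apart either.

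Markers bore out the microglia label in most cells. Every double-positive and double-negative cell had at least 3 of the 10 microglia markers (among them Csf1r, Tmem119, P2ry12, Cx3cr1, Siglech, Sall1, Aif1, C1qa and Fcrls). Their summed FPKM ranged from 1131 to 18623 in PBS, 1951 to 13990 in Low and 921 to 12887 in High double-positive cells. In double-negative cells the sums were 3452 to 17114 in Low and 2052 to 9562 in High. In PBS they were 34.2, 303 and, in the other 3 cells, 7117 to 14136.

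After seeing the data, 3 cells were taken as standing apart, but they were not the only cells with high markers of other types. Border macrophage markers summed to 4403 FPKM in a double-negative High cell, 1826 in a double-negative Low cell and 1330 in a double-positive Low cell. Monocyte markers summed to 1469 FPKM in a double-negative High cell. Of the 3 cells, the PBS double-negative ones with microglia marker sums of 34.2 and 303 had high Lyz2, a lysozyme gene of macrophages and other myeloid cells. It was at 50819 and 67818 FPKM in them, and Tmem119 was at 1.41 and 0.637. The double-positive Low cell with 50760 reads carried the neutrophil genes S100a8 and S100a9 at 54673 and 63970 FPKM, together with Tmem119 at 221. Without these 3 cells, summary values that moved by over 1.5 times are given both ways, and the adjusted differences of single genes were as follows: Irf8 1.41, Pycard 1.97, Ccl2 1.51, Bst2 -2.18, Sem1 -2.46, Rpl5 -3.12 and Hsd17b10 -2.86, against 2.00, 1.47, 1.84, -1.71, -2.92, -2.69 and -2.55 with them.

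Markers of other cells also differed between the classes. At least 3 of 8 neutrophil markers were found in 5 PBS, 5 Low and 3 High double-positive cells and in no double-negative cell. Summed neutrophil markers were 0.105 to 155 FPKM, 0 to 127115 and 0 to 396 in double-positive cells, and reached at most 0.578, 23.6 and 0.877 in double-negative cells. Camp was at 0 in every double-positive and double-negative cell, and Ngp in those of PBS and High. Csf3r, the receptor for granulocyte colony-stimulating factor, was the marker that differed most, with an adjusted difference of 2.35 ± 0.26. At least 3 of 10 rod markers were found in 2, 1 and 1 double-positive and 0, 1 and 3 double-negative cells, and 9 of these markers summed to at most 22.6, 15.6 and 8.33 FPKM in double-positive and 55.6, 3326 and 6866 in double-negative cells. For border macrophages the counts were 3, 2 and 2 against 0, 2 and 1 cells, and for Muller glia 4, 4 and 2 against 1, 1 and 1. None of these counts is adjusted for detected genes, of which double-positive cells had more. Adjusted differences were taken for markers found in at least 10% of kept cells. All 3 such border macrophage markers and all 5 rod markers had means below 0, as did 1 of 2 Muller glia markers. All 4 neutrophil markers had means above 0. No cell of either class had 3 markers of B cells, dendritic cells, or T or NK cells. Leaving out cells with 3 or more markers of rods, border macrophages, monocytes or neutrophils kept 10, 9 and 4 double-positive and 4, 11 and 5 double-negative cells. Wherever cells with markers of other types are left out below, only these types are meant. Muller glia markers did not enter that choice.

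Most genes were higher in double-positive cells before adjustment and about as many were higher as lower after it. Of 3714 genes tested, 3245 (87.4%) had an unadjusted mean above 0, with a median of 1.23, and the median adjusted difference was -0.08 (-0.32 in PBS, 0.28 in Low and -0.10 in High). After adjustment 116 genes (3.12%) were at 1 or more in all 3 groups and 60 (1.62%) at -1 or less, while 544 (14.6%) were positive and 594 (16%) negative in all 3. Genes were tested when found in 25% of kept cells, which the 42 double-positive cells could meet alone and the 27 double-negative cells could not. The filter thus favoured genes of double-positive cells, and the counts of higher and lower genes are not on equal terms. Without adjustment the counts at 1 or more and -1 or less were 1077 and 0, and within the shared range 31 and 280, with a median over all genes of -0.63. Genes at -1 or less in all 3 groups therefore appeared only with adjustment or within the shared range, although some were already lower in each group without it. Across genes, the adjusted differences of 2 groups correlated at 0.094 (PBS and Low), 0.163 (PBS and High) and 0.160 (Low and High), over 3714 genes that are not independent.

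Gene lists were read against a wider set of 8240 genes, found in at least 10% of kept cells. Of these, 1358 (16.5%) were positive and 1049 (12.7%) negative in all 3 groups, 152 (1.84%) were at 1 or more in all 3 and 71 (0.862%) at -1 or less, and the median was 0.0094. In the text below, "called" means at 1 or more, or at -1 or less, in all 3 groups.

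Immediate early genes had the highest median of the 28 lists with and without adjustment, but not within the shared range. Of 25 listed, 21 were measured, 19 had a mean above 0, 11 were positive in all 3 groups and 7 were called, all higher, against 1.84% of all genes. The list median was 1.76 (0.92 in PBS, 2.21 in Low, 1.44 in High), 3.46 before adjustment, where the median of all genes was 0.84, and 0.21 within the shared range, where it was -0.34. The called members were Ier2, Atf3, Jun, Id2, Egr1, Klf2 and Rhob.

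Ier2, a nuclear protein of the immediate early response, was found at 5.83 to 2558 FPKM in double-positive PBS cells (median 630), while the 5 double-negative PBS cells had 0, 0.307, 0.457, 3.42 and 309. In Low cells it was 6.65 to 2013 (median 1120) against 0 to 5.46 (median 0.964), and in High cells 30.4 to 2117 (median 998) against 0.275 to 421 (median 1.04). The ranges were separate in Low and overlapped through a single high double-negative PBS cell and at least 1 High cell. The adjusted difference was 4.44 ± 0.96 (3.38, 5.25 and 4.70 in PBS, Low and High) and the unadjusted one 7.12.

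Atf3, a stress-induced repressor of the CREB family, was at 12.2 to 2027 FPKM in double-positive PBS cells and at 0, 0.237, 0.822, 0.970 and 5.33 in double-negative ones, so these did not overlap. In Low cells its median was 833 against 0.455 and in High cells 200 against 0.779, with overlapping ranges. Its adjusted difference was 3.74 ± 1.03. Jun, an AP-1 subunit, was at 6.96 to 1458 FPKM against 0, 0.437, 0.440, 0.971 and 2.29 in PBS, again without overlap, and its adjusted difference was 3.73 ± 1.41. Jun overlaps its antisense gene Junos, so its reads are of uncertain origin. Egr1, a zinc-finger factor, was at 15.8 to 2579 FPKM in double-positive PBS cells and at 0.228, 0.939, 1.58, 131 and 503 in double-negative ones, and gave 3.32 ± 0.97. In Id2, an inhibitor of basic helix-loop-helix factors, the 5 double-negative PBS cells were at 0 to 0.575 FPKM and the 9 High ones at 0 to 0.649, and the adjusted difference was 3.36 ± 0.81.

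Fos, the AP-1 partner of Jun, did not separate the classes in PBS. Double-positive PBS cells had 33.5 to 3537 FPKM (median 935), and the double-negative ones 0.434, 2.37, 410, 1012 and 1718, so 3 of the 5 lay inside the double-positive range. Its adjusted difference was 0.72 in PBS, 3.75 in Low and 3.36 in High. Whether the groups differ in this was not tested. Klf2, a transcription factor that restrains inflammatory genes, gave 3.11 ± 0.65, and Rhob, a small GTPase that is induced early, gave 2.14 ± 0.99.

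**Figure D3:**
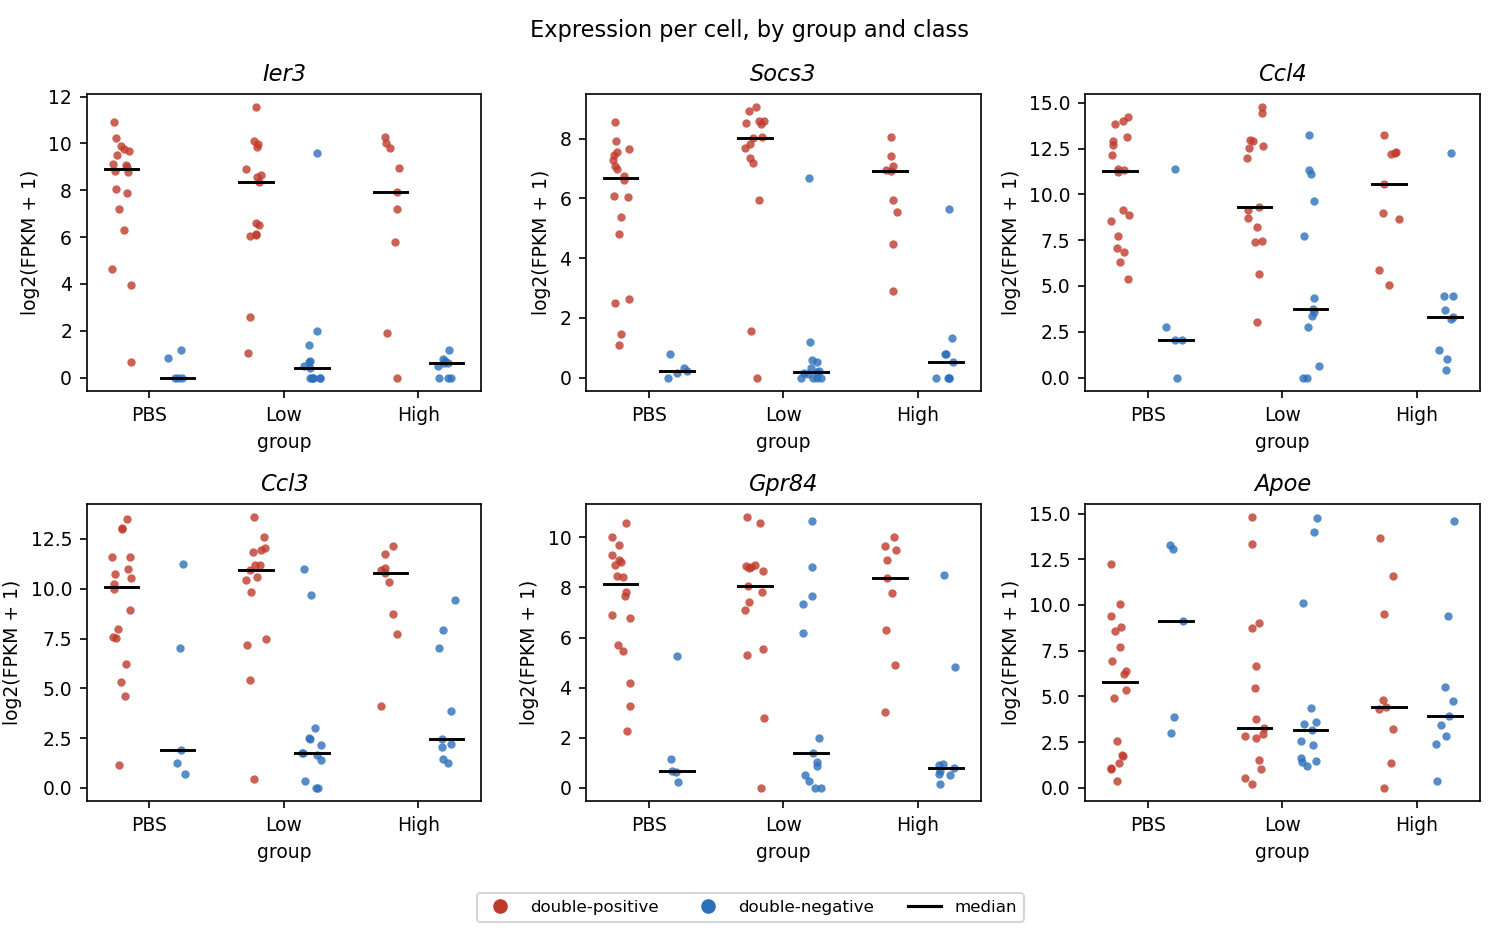
Expression per cell of Ier3, Socs3, Ccl4, Ccl3, Gpr84 and Apoe as log2(FPKM + 1) (vertical) by group, with each point a cell and lines at medians. In the first 5 genes the double-positive medians lie above those of double-negative cells in all 3 groups, while Apoe overlaps widely. Some double-negative cells are high in these 5 genes, several of them in Low for Ccl4 and Gpr84.

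Ier3, an NF-kB target that limits cell death, had the largest mean adjusted difference of the genes named here, 4.74 ± 1.62 (5.43, 2.89 and 5.90). In PBS it was at 0.574 to 1931 FPKM (median 485) in double-positive cells and at 0, 0, 0, 0.782 and 1.23 in double-negative cells. In Low cells it was at 1.08 to 3009 (median 322) against 0 to 759 (median 0.320), and in High cells at 0 to 1222 (median 243) against 0 to 1.29 (median 0.543). It reached an FPKM of 1 in 17 of 18, 15 of 15 and 8 of 9 double-positive cells and in 1 of 5, 3 of 13 and 1 of 9 double-negative cells. Within the shared range of detected genes it gave 4.68 in PBS, 0.94 in Low and 6.38 in High. The gene lies at chr17:35821684-35822923 on the plus strand of GRCm38 in the deposited annotation, which places its start within the last bases of the stretch printed above.

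Some of the inhibitors and targets of NF-kB were higher in double-positive cells. Of 25 listed, 20 were measured, 16 had a mean above 0, 8 were positive in all 3 groups and 4 were called, all higher: Ier3, Nfkbia, Icam1 and Nfkbiz. The list median was 0.53 (0.18, 1.39 and 0.65), 1.93 before adjustment and -0.27 within the shared range, where all genes stood at -0.34, so the direction of the list as a whole was not kept.

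Nfkbia, which encodes the inhibitor I-kappa-B alpha, was at 8.17 to 2063 FPKM in double-positive PBS cells (median 1301) and at 0, 0.916, 3.89, 1939 and 2581 in double-negative ones. Its adjusted difference was 1.41 in PBS, 3.32 in Low and 4.86 in High, and within the shared range it gave 3.36, 0.79 and 5.66. Nfkbiz, an atypical I-kappa-B protein that acts in the nucleus, gave 2.46 ± 0.95. Icam1, an adhesion molecule, was at or under 0.717 FPKM in each double-negative PBS cell and gave 3.14 ± 1.02, and it overlaps the gene model Gm47079. Tnfaip3, the feedback inhibitor A20, was positive in all 3 groups but not called, at 1.19, 1.77 and 0.96.

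The subunits and transducers of NF-kB differed less. Of 20 listed, 16 were measured, and only Myd88, an adaptor of Toll-like and IL-1 receptors, was positive in all 3 groups (0.03, 0.20 and 2.36). None was called. Rela, the p65 subunit, gave -0.58, 1.55 and 1.29, and Nfkb1, the p50 precursor, gave -1.46, 0.72 and 0.44. Their median was 0.096.

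Chemokine genes split between strong members and the rest. Of 17 listed, 12 were measured, 7 had a mean above 0, 6 were positive in all 3 groups and 3 were called: Ccl4, Ccl3 and Ccl2. The list median was 0.51, and 0.79 without the 3 cells that stood apart, but -0.44 without plate 3, so it had no stable direction.

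Ccl4, an inflammatory chemokine of the CC family, reached the highest level of the 3. Double-positive PBS cells had 40.4 to 19295 FPKM (median 2447) and double-negative ones 0, 3.13, 3.16, 5.67 and 2711. In Low cells the medians were 640 and 12.4, with double-negative cells up to 9628, and in High cells 1505 and 8.89, with double-negative cells up to 4991. Its adjusted difference was 3.88 ± 2.10, lowest in Low (1.46) and 4.94 and 5.24 in PBS and High. Within the double-positive range of Ccl4 lay 1 of 5 double-negative cells in PBS, 9 of 13 in Low and 1 of 9 in High.

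Ccl3, a close relative of Ccl4, was at 1.18 to 11481 FPKM (median 1109) in double-positive PBS cells and at 0.611, 1.36, 2.7, 127 and 2393 in double-negative ones. Its medians were 1996 and 2.41 in Low and 1792 and 4.38 in High, and its adjusted difference was 3.60 ± 0.66. Ccl2, which attracts monocytes through CCR2, was called at 1.84 ± 0.23 but was -1.69 without plate 3. Cxcl10, an interferon-induced ligand of CXCR3, was positive in all 3 groups at 0.83, 1.00 and 2.38.

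Other cytokines of the TNF and IL-1 families were scarce. Of 16 listed, without Tnf and Il1a, 7 were measured, all 7 had a mean above 0, 4 were positive in all 3 groups and none was called, with a list median of 0.61. Il1b, the IL-1 family member released through the inflammasome, reached an FPKM of 1 in 5 of 18 PBS, 3 of 15 Low and 2 of 9 High double-positive cells and in no double-negative cell. Its highest level was 1218, 2614 and 17.8 FPKM in the 3 groups, and its adjusted difference was 2.02, 0.98 and 0.25. Cells that expressed Tnf and Il1a thus mostly did not carry Il1b at this depth. Il1b overlaps the antisense gene Il1bos. Csf1, which encodes the growth factor of microglia themselves, was found in 6, 5 and 2 double-positive and in 0, 0 and 1 double-negative cells.

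Receptors and processing enzymes of the 2 cytokines were mixed. Of 20 listed, 14 were measured and 10 had a mean above 0, with a list median of 0.73, and Pycard, the inflammasome adaptor ASC, was the called member at 1.47 ± 0.25. Adam17, the protease that sheds TNF from the membrane, was positive in all 3 groups (0.49, 1.52 and 1.18), as was Casp8 (0.78, 4.15 and 2.99). The TNF receptor genes Tnfrsf1a (-0.53, 0.50 and 3.34) and Tnfrsf1b (-1.24, 1.71 and 1.64) were negative in PBS and positive with ripasudil, which was not tested as a difference.

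Socs3, the inhibitor of JAK and STAT signalling, was among the highest genes. It was at 1.14 to 377 FPKM (median 103) in double-positive PBS cells and at 0, 0.102, 0.162, 0.241 and 0.721 in double-negative ones, with no overlap. In Low cells its medians were 258 and 0.128, and in High cells 119 and 0.425. Single double-negative cells reached 100.4 FPKM in Low and 48.7 in High, so those ranges overlapped. In Low a double-positive cell had Socs3 at 0, so 13 of 13 double-negative cells lay within the double-positive range, against 1 of 9 in High. Its adjusted difference was 4.06 ± 0.41, the most even between groups of the 5 highest genes, and within the shared range it gave 2.68, 0.39 and 3.46 in PBS, Low and High.

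Among 13 measured genes of AU-rich mRNA binding and decay, 10 had a mean above 0 and 2 were called, with a list median of 0.71. Zfp36, tristetraprolin, which marks Tnf mRNA for decay, was at 12.3 to 1683 FPKM (median 524) in double-positive PBS cells and at 0, 1.08, 1.57, 4.81 and 683 in double-negative ones, and gave 2.83 ± 0.40. It overlaps the gene model Gm44710. Btg2, an antiproliferative protein that recruits the deadenylase complex, was at 6.47 to 1346 FPKM against 0, 0, 0.852, 3.04 and 14.6 in PBS and gave 3.67 ± 0.56. Elavl1, the stabilising protein HuR, was negative in all 3 groups.

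Ppp1r15a, also GADD34, which reverses the translational block of the stress response, gave nearly the same value in each group, 3.52, 3.39 and 3.38. Its double-positive medians were 206, 256 and 150 FPKM and its double-negative medians 0.159, 0.241 and 0.478. Ppp1r15a overlaps Tulp2, so its reads are of uncertain origin. Of 9 measured MAPK genes 5 had a mean above 0, and the ERK phosphatase Dusp6 was called at 1.82 ± 0.90. Dusp1, the phosphatase of p38 and JNK, gave 0.32, 3.54 and 4.80 and overlaps Ergic1. Tbcb, a tubulin cofactor, was at 3.48 ± 2.53, with Low at 6.17, High at 1.15 and an overlap with Polr2i.

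**Figure D4:**
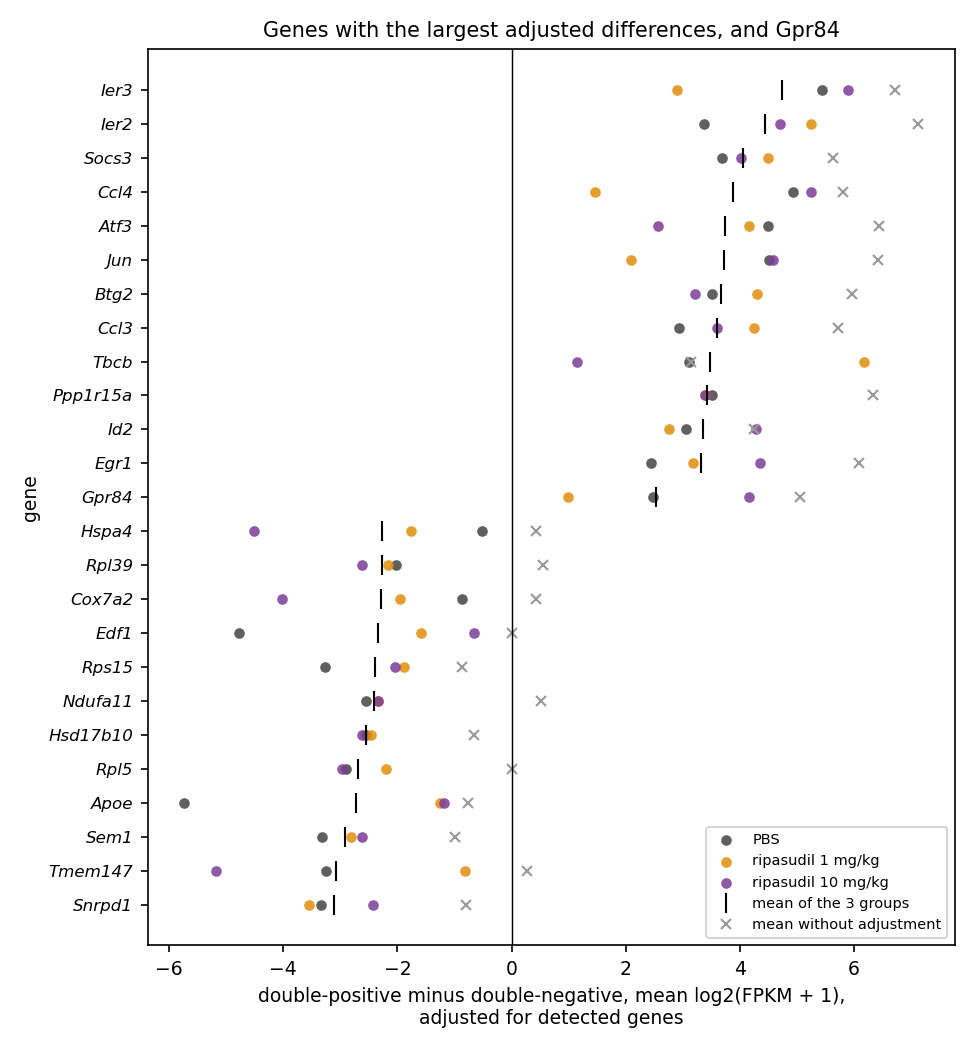
Adjusted differences (horizontal, log2 scale, double-positive minus double-negative) of the 12 highest and 12 lowest tested genes that had the same sign in every group, and of Gpr84. Points are groups, bars their mean and crosses the mean without adjustment; the crosses of the lowest genes lie near 0, between -0.99 and 0.55.

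Some values changed without the cells that carried markers of other types. Without the cells with 3 or more such markers, the adjusted differences were 4.92 for Ier3, 4.66 for Ier2, 3.74 for Socs3, 3.27 for Ccl4, 3.44 for Atf3, 4.13 for Jun and 3.04 for Ccl3. Further from the values above were Id2 (2.33), Btg2 (4.55), Ccl2 (3.18), Pycard (2.64), Rac1 (-0.90), Bst2 (-2.97), Snrpd1 (-2.23) and Rps15 (-4.17). Without the 3 cells that stood apart the first 7 genes were at 4.81, 5.03, 4.07, 3.68, 3.74, 3.81 and 3.05. With the plate as a term, Ier3 gave 4.65, Socs3 4.06, Ccl4 3.82 and Ccl3 3.53. Single plates held 1 cell of a class in some groups, so the fit was not made within each plate.

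Gpr84, whose product binds medium-chain fatty acids and raises inflammatory signalling in macrophages, was higher in double-positive cells by 2.54 ± 1.59 (2.48, 0.98 and 4.15), against 5.06 before adjustment. It was at 3.86 to 1534 FPKM (median 283) in double-positive PBS cells, where it was found in 18 of 18, and at 0.171, 0.542, 0.605, 1.21 and 37.6 in double-negative ones. In Low cells it was found in 14 of 15 double-positive cells (median 269) and in 8 of 13 double-negative ones (median 1.65, highest 1599). In High cells it was found in 9 of 9 (median 333) against 2 of 9 (median 0.712, highest 362). The classes were thus least separate in Low. Within the shared range Gpr84 stood 1.6 and 6.67 higher in PBS and High, and the difference was -3.17 in Low, with its 1 double-positive cell. Gpr84 did not reach a difference of 1 in Low, so it was not called. It was 1.26 without the cells with markers of other types, and it overlaps the gene model Gm49482.

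Of 11 other measured receptors for metabolites and lipid mediators, 9 had a mean above 0, with a median of 0.76. Within the shared range only 1 of the 11 did, with a median of -0.61, so this direction was not kept. Gpr183, a receptor for oxysterols, was called at 1.72 ± 0.31. Gpr34, a lysophosphatidylserine receptor of microglia, was positive in all 3 groups (1.84, 0.13 and 4.16), as were C3ar1 (0.59, 3.23 and 1.41) and P2ry6 (0.04, 1.13 and 1.12).

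Genes of the ROCK pathway, which ripasudil acts on, were not higher as a list. Of 24 listed, 21 were measured, 9 had a mean above 0 and 2 were called, both lower, against 0.862% of all genes, and the median was -0.20. The kinase genes gave 0.62, 0.39 and -1.60 for Rock1 and -3.27, 0.37 and -1.17 for Rock2. Rac1, a GTPase of actin dynamics, was called at -1.76 ± 0.68, but its unadjusted mean was 0.69, and it overlaps Daglb. Cfl1, the actin-severing protein cofilin, was at 481 to 932 FPKM in the 5 double-negative PBS cells and at 26 to 908 in double-positive ones, and gave -1.51 ± 0.32, or -0.66 unadjusted. Of 22 measured actin genes none was called, and the list median was 0.12.

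Homeostatic microglia genes were not lower in cells that expressed both cytokines. All 28 listed were measured, 25 had a mean above 0, 13 were positive in all 3 groups and 5 were called, all higher, among them Tmem119, Selplg, Rhob and Tgfbr1. The list median was 1.03 (0.62, 0.72 and 1.43), 2.65 before adjustment and 0.0022 within the shared range. It was 0.59 without the 3 cells that stood apart and 0.14 without cells with 3 or more markers of another type, where all genes stood at -0.25. The height of the list therefore depended on which cells entered.

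Tmem119, a surface protein of microglia, was at 3.84 to 2186 FPKM (median 351) in double-positive PBS cells and at 0.637, 0.903, 1.41, 5.41 and 521 in double-negative ones, of which the values 0.637 and 1.41 were those of the cells that stood apart. Its medians were 445 and 47.1 in Low and 297 and 2.12 in High, and its adjusted difference was 2.47 ± 1.21, or 2.13 without those cells. Selplg, the ligand of P-selectin, gave 2.22 ± 0.93, but 0.39 without cells with markers of other types. Tgfbr1, a receptor of TGF-beta, which maintains microglial identity, gave 1.97 ± 0.22.

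P2ry12, the purinergic receptor that marks resting microglia, was not called. It was at 1.74 to 795 FPKM (median 214) in double-positive PBS cells and at 0.348, 0.367, 1.64, 429 and 1768 in double-negative ones, with adjusted differences of 1.22, -0.85 and 1.57. Cx3cr1, the fractalkine receptor, was at 65.2 to 1557 FPKM against 0.458, 0.623, 3.24, 283 and 367 in PBS and gave 3.62, 0.26 and 0.44. The 2 PBS cells that stood apart held its values of 0.458 and 0.623.

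All 8 measured complement genes had a mean above 0 and 5 were positive in all 3 groups, none of them called, with a list median of 0.92 but -0.36 within the shared range. C1qa and C1qc, which encode chains of C1q, gave 1.41, 0.22 and 1.03, and 1.61, 0.77 and 0.47. Among 11 measured Toll-like receptors and co-receptors, Cd180, which modulates TLR4 signalling, was called at 1.84 ± 0.20. Tlr2, a receptor for bacterial lipoproteins, gave 0.18, 2.81 and 4.23, and Tlr4 gave 0.50, 0.60 and 0.55.

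Interferon response genes showed no common direction, with 14 of 23 measured means above 0, 2 called higher and 2 called lower. The transcription factors Irf8 (2.00 ± 0.05) and Irf1 (1.45 ± 0.20) were higher. Bst2, tetherin, and Ifitm2 were lower, at -1.71 ± 0.44 and -1.29 ± 0.28, but Bst2 was 1.83 higher before adjustment. Of 13 measured MHC class I genes, Tapbp, the tapasin gene, was called higher at 1.66 but was -0.010 without plate 3, and Psme1, a proteasome activator, was called lower at -1.77 but was 2.07 higher before adjustment. Cd86, a co-stimulatory ligand, was called at 1.95 ± 1.27.

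Disease-associated microglia genes, a set known from models of neurodegeneration, did not separate the classes, with 14 of 24 means above 0 and a list median of 0.20. Its called member was Apoe, the lipid carrier, at -2.72 ± 2.61 (-5.73, -1.25 and -1.18). Apoe was at 0.285 to 4755 FPKM (median 57.7) in double-positive PBS cells and at 6.92, 13.7, 551, 8582 and 9892 in double-negative ones, the last 2 being the cells that stood apart. In Low and High the classes overlapped widely, with medians of 8.76 and 7.81, and of 20.4 and 14.1. Without the 3 cells that stood apart the difference was -1.73.

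Other genes among the 12 lowest in double-positive cells after adjustment had varied roles. They included Snrpd1, a core splicing protein (-3.10 ± 0.59), Sem1, a proteasome subunit (-2.92 ± 0.36), the ribosomal protein genes Rpl5 (-2.69 ± 0.42) and Rps15 (-2.40 ± 0.76), and Hsd17b10, a mitochondrial dehydrogenase (-2.55 ± 0.08). Rps15 was at 600 to 3523 FPKM in the double-negative PBS cells and at 3.10 to 1268 (median 338) in double-positive ones. Sem1 was at 0, 53.8, 56.5, 67.1 and 601 against 0 to 79.2 (median 22.2). Rpl5 and Rps15 were detected in most cells of both classes, Snrpd1 and Hsd17b10 were not. Their unadjusted differences were -0.79 for Snrpd1, -0.99 for Sem1, 0.012 for Rpl5, -0.87 for Rps15 and -0.66 for Hsd17b10. FPKM is a share of a cell's reads, so the levels of genes in a cell are not independent. Rpl5 also shares sequence with 3 copies, and its reads are of uncertain origin.

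**Figure D5:**
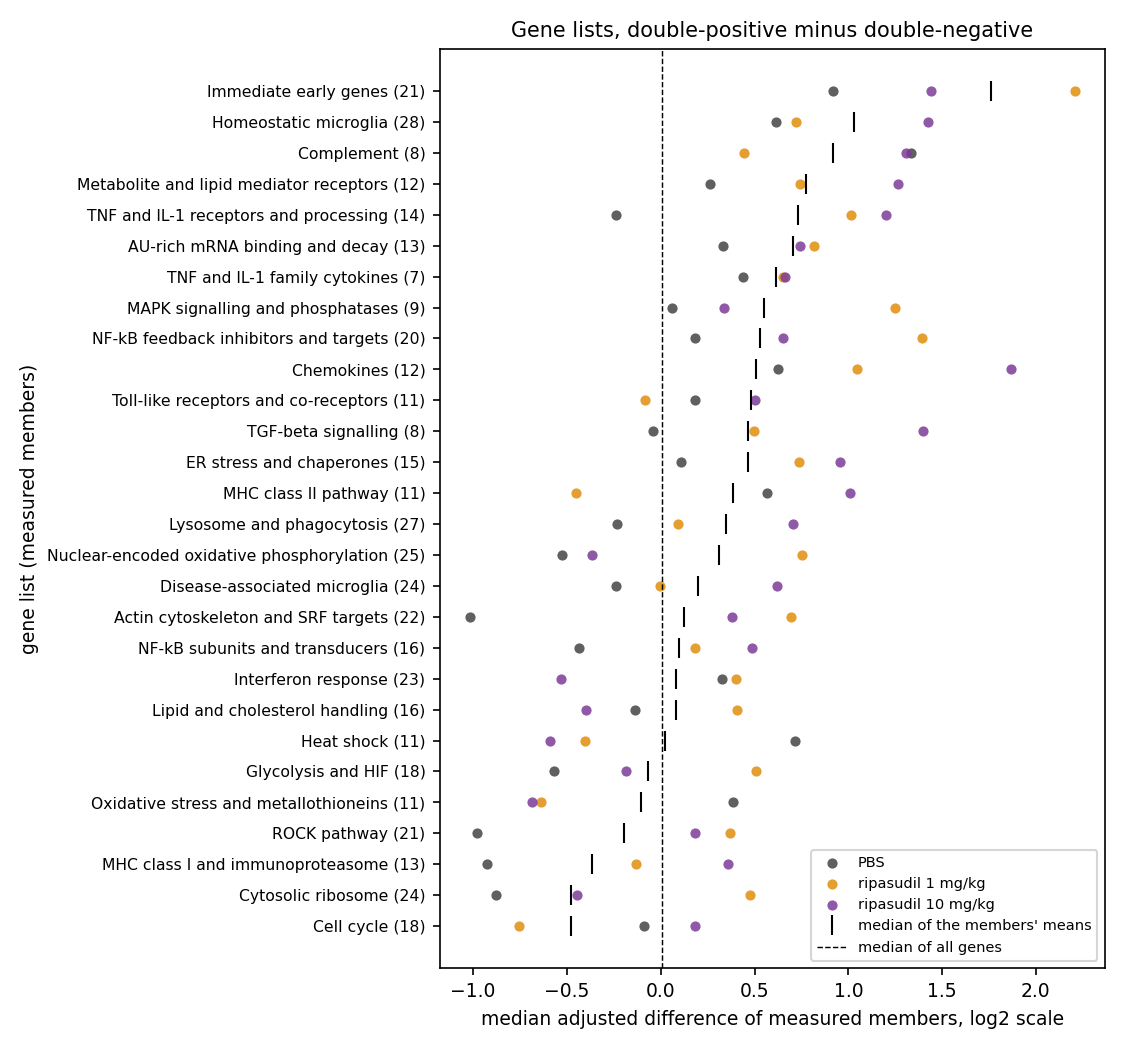
Median adjusted difference (horizontal, log2 scale) of the measured members of 28 gene lists, by group (points), with bars at the median of the members' means and a dashed line at the median of all 8240 genes. Immediate early and homeostatic genes lie highest, at 1.76 and 1.03, and the points of many lower lists fall on both sides of the line.

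In Ier3 and Socs3, cells with Il1a but not Tnf at an FPKM of 10 or more had means between those of the classes. These 18 cells (6 PBS, 4 Low, 8 High) had mean log2(FPKM + 1) levels of Ier3 of 4.92, 4.56 and 2.34, against 7.97, 7.40 and 6.87 in double-positive cells and 0.40, 1.17 and 0.49 in double-negative ones. For Socs3 their means were 4.38, 3.05 and 2.59, against 5.77, 7.05 and 6.14 in double-positive and 0.29, 0.76 and 1.01 in double-negative cells. In Ccl4 they were above double-positive cells in Low (10.97 against 10.08) and below them in PBS (8.15 against 10.38) and High (9.26 against 9.90). The 2 PBS cells with Tnf but not Il1a at that level were above double-positive cells in Ccl4 (12.54) and Jun (9.50 against 7.53). The 2 High cells of that kind were below them in Ccl4 (8.20 against 9.90) and Jun (4.38 against 7.57). The 49 other cells with neither gene at that level had Ier3 means of 0.94, 1.54 and 1.77. These levels are not adjusted for detected genes.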

How the data were processed

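RNA of single sorted cells was sequenced from full-length cDNA made and amplified per cell and tagmented with the Nextera XT kit, per the labels' protocols. The authors deposited FPKM values for 55364 genes and 144 cells, with gene lengths. The genome was GRCm38.p6 (mm10), and the submitters' processing notes name STAR 2.7.2b, featureCounts 1.6.1, cutadapt 1.16, Trimmomatic 0.36 and Trim Galore 0.4.4 without an order. For their settings and the use of strand, the sources used here give nothing. The labels named no molecular identifiers, and reads were not taken as independent molecules. Assigned reads per cell, 30204 to 4668733, were read from the most frequent value of FPKM multiplied by gene length. Cells correlated with each other at 0.746 at most, so none was a repeat deposit.

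The members, gene lists and rules were chosen with earlier results of these data known. A linear fit of log2(FPKM + 1) on class (double-positive, double-negative, other) and log2 detected genes was made in each group over its kept cells, and the 3 groups were weighted equally. The 4 cells under 1000 detected genes were left out. Tested genes reached an FPKM of 1 in 25% of kept cells, leaving out Tnf, Il1a and mitochondrial genes, and list members needed 10%. The pseudocount of 1 understates differences of genes that many cells lack. No p-value was computed, since each group was 1 sample.

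Named genes were the 12 highest and 12 lowest by mean adjusted difference with the same sign in every group, Gpr84, and from each list the 3 members that differed most, without gene models and pseudogenes. Other members were named after their values were seen, and some genes are not reported here. The fit was also run on simulated cells, in which detection of every gene rose alike with detected genes. Real genes need not do so, and the run is no proof of the fit. Alternatives varied the adjustment, thresholds, pseudocount, filter, plates and cells. Overlapping genes came from GENCODE M21 and upstream stretches from RefSeq. Calculations used pandas 2.3.3, numpy 2.4.6 and scipy 1.17.1 under Python 3.11.15, and figures matplotlib 3.10.9.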

Additional observations from a re-analysis of the deposited data

Results flagged for a closer look

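In groups of 4 to 10 cells, a single cell far from the others was looked for, which chance gives in about 1 group in 20. The highest of the 9 double-negative High cells had 4387339 assigned reads and lay far above the other 8. Gpr84 in the highest of the 5 double-negative PBS cells was at 5.27 as log2(FPKM + 1), far above the other 4.

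Medians of 4 gene lists took opposite signs in 2 groups, and none of these differences was tested. Actin cytoskeleton genes had a median adjusted difference of -1.01 in PBS and 0.69 in Low. Glycolysis genes were at -0.57 in PBS and 0.51 in Low, and nuclear-encoded oxidative phosphorylation genes at -0.53 and 0.75. Heat shock genes were at 0.72 in PBS and -0.59 in High. The median over all 8240 genes was itself -0.083 in PBS, 0.20 in Low and 0.021 in High.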

How the results depend on the processing

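The number of detected genes limits these results, since the classes overlap little in it, and the Low value within the shared range rests on 1 double-positive cell. Of 109 named genes, 36 moved by less than 1 SD over groups without adjustment, 67 moved further and 6 of those called in all 3 groups reversed: Rpl5 (0.012), Ndufa11 (0.51), Rpl39 (0.55), Rac1 (0.69), Bst2 (1.83) and Psme1 (2.07). Counting uncalled genes too, 28 of the 109 changed sign without adjustment and 12 within the shared range. Without adjustment, 1077 genes were higher and 0 lower. The median of all genes was then 1.23, Gpr84 5.06, cytokines 1.41, chemokines 1.22, NF-kB feedback inhibitors and targets 1.93, immediate early genes 3.46 and homeostatic genes 2.65. Within the shared range, 31 were higher and 280 lower, with all genes at -0.63, cytokines at 0.48, NF-kB feedback at -0.27, immediate early genes at 0.21 and homeostatic genes at 0.0022. With reads as a covariate too, 176 genes were higher and cytokines were at 0.85. In 1 fit over all groups, which needs no agreement between them, 497 were higher and 353 lower.

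With double-positive set at FPKM 5, 66 genes were higher and homeostatic genes were at 0.48; at FPKM 20, cytokines were at 0.90. With double-negative set at 0, where only Low had enough cells, 1181 were higher and 563 lower, with all genes at 0.29, Gpr84 at 0.099, NF-kB feedback at 1.27, immediate early genes at 2.49, homeostatic genes at 0.58 and Tapbp at -0.43. From 2000 detected genes, cytokines were at 0.80. A pseudocount of 0.1 gave 238 higher and 132 lower, cytokines at 0.88 and immediate early genes at 2.48. A pseudocount of 10 gave 23 and 18, with 0.28, 0.81 and homeostatic genes at 0.50. At a filter of 50% of cells, 43 were higher and immediate early genes were at 3.22, and no cytokine was left. Without cells with markers of other types, 151 were lower, cytokines were at 0.86 and homeostatic genes at 0.14.

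The following were chosen after seeing the data. Between 2000 and 5000 detected genes, 124 were lower, cytokines were at 0.24 and Tapbp at -0.020. Without cells under 300000 reads, 179 were higher, cytokines were at 0.87 and homeostatic genes at 1.49. A squared term for detected genes and leaving out the 3 cells that stood apart kept both counts within 1.5 times. The cause of these changes was not tested.

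Leaving out each plate gave 126 to 173 higher and 53 to 193 lower genes, all genes at -0.25 to 0.12, Gpr84 at 1.61 to 3.71, cytokines at 0.33 to 1.11, chemokines at -0.44 to 0.85, NF-kB feedback at 0.59 to 0.95, immediate early genes at 1.6 to 2.04 and homeostatic genes at 0.73 to 1.69. Ccl2 was at -1.69 to 3.57 and Tapbp at -0.010 to 2.83, both lowest without plate 3. Leaving out each cell gave 103 to 134 and 43 to 68 genes, all genes at -0.11 to -0.028, Gpr84 at 2.33 to 2.85, cytokines at 0.50 to 0.78, chemokines at 0.40 to 0.72, NF-kB feedback at 0.30 to 0.77, immediate early genes at 1.28 to 2.25 and homeostatic genes at 0.72 to 1.24. No paired analysis was possible because each cell was its own library and well numbers do not link cells of different groups.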

Other observations

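Of 15 measured genes of the endoplasmic reticulum stress response 11 had a mean adjusted difference above 0, with a list median of 0.46, and 5 were positive in all 3 groups. Within the shared range 5 of the 15 were above 0, with a median of -1.07, against -0.34 over all genes, so the direction was not kept. Atf4, the transcription factor of the integrated stress response, gave 0.95, 1.90 and 2.56 in PBS, Low and High, and its target Ddit3 gave 0.96, 0.51 and 3.39. Heat shock genes had a list median of 0.025, with the co-chaperone gene Dnajb1 at 0.84, 1.69 and 2.00 and the chaperone gene Hsp90aa1, which has 2 near-identical copies, at -2.24, -0.72 and -3.63.

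Genes of growth and division were not higher. Of 18 measured cell cycle genes 13 had a mean below 0, with a list median of -0.48, and none was called. Top2a, a topoisomerase of dividing cells, gave -1.70, -0.19 and -0.20. Of 24 cytosolic ribosome genes 14 had a mean below 0, with a list median of -0.48, and Rpl5 and Rps18 were called lower. Of 11 genes of the oxidative stress response, Gpx1, a glutathione peroxidase, gave -3.10, -0.64 and -0.69 and Prdx1, a peroxiredoxin, gave 2.42, 0.34 and 1.30.

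The 4 cells left out for too few genes had 876 to 939 detected genes. Their assigned reads were 105518 in the High cell, 2410038 in the Low cell and 2604448 and 1503141 in the PBS cells. Tnf was at most 0.253 FPKM in them, and Il1a at most 1.01.

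The few cells with high Tnf and Il1a under 10, 2 in PBS and 2 in High, had mean Apoe levels of 14.42 and 2.57 as log2(FPKM + 1), and mean Socs3 levels of 0.63 and 0.51, against 5.77 and 6.14 in the double-positive cells of those groups.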
